A study of Mus musculus with 10 samples.

Results

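The genes Cd3e, Cd2, Cd4, Cd8a, Cd8b1, Foxp3, Cd28, Icos, Ctla4 and Pdcd1, which mark T cells, their subsets and the receptors that tune their activity, were followed in mouse skin. These 10 genes were taken by symbol from a table of 47729 Ensembl genes, with 1 identifier each, and none was chosen by a measured value. Messenger RNA was sequenced from skin of 10 male C57BL/6 mice, 5 labelled 9 months and 5 labelled 24 months old. No treatment, transgene or mutation is named for either group, and each title carries its own number, read here as 1 mouse per library. The younger mice are 9 months old by the sample labels but 2 months old by the series' design text, and the sample labels are followed. Body site and hair cycle stage were not known here.

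T cells recognise antigen through a receptor made of a variable pair of chains and the invariant CD3 subunits. Helper and regulatory T cells carry the co-receptor CD4, and cytotoxic T cells carry CD8, a pair of an alpha and a beta chain. A further signal comes from CD28 and its relative ICOS, whereas CTLA-4 and PD-1, the product of Pdcd1, restrain the cell and are known as checkpoints. The epidermis of mice also holds many gamma-delta T cells, which carry CD3 but mostly neither CD4 nor CD8. CD2 is an adhesion molecule that in mice is found on T, natural killer and B cells, and some mouse dendritic cells carry CD4 or CD8 alpha, so these genes do not mark T cells alone.

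The members lie on chromosomes 1, 3, 6, 9 and X of the mouse genome build GRCm38. Cd28 (60716800 to 60773359), Ctla4 (60887000 to 60915832) and Icos (60977927 to 61000320) are neighbours on the plus strand of chromosome 1, with gaps of 114 and 62.1 kb between them. Cd8b1 (71322788 to 71337494) and Cd8a (71373427 to 71379173) are neighbours on the plus strand of chromosome 6, 35.9 kb apart. Pdcd1 lies on chromosome 1 (94038305 to 94052553), Cd2 on chromosome 3 (101275899 to 101287939), Cd4 on chromosome 6 (124864692 to 124888221) and Cd3e on chromosome 9 (44998740 to 45009627), all on the minus strand. Foxp3 lies on the plus strand of the X chromosome (7573644 to 7595245). Of its exon bases, 31.5% also belong to exons of 4 other annotated genes, so its counts are less certain than those of the other 9 members, whose exons overlap no other gene.

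A promoter window, 250 bases before to 50 after the start site, was held by the RefSeq table (build GRCm38.p6) for 5 of the 10 members, and 3 are printed. They are sequence context for the CD3 subunit that differed little between the ages (Cd3e, chr9:45009562-45009861, minus strand), a co-receptor that was above the younger range in 3 of 5 older mice (Cd8a, chr6:71373177-71373476, plus strand) and a checkpoint that was so in the same 3 (Pdcd1, chr1:94052504-94052803, minus strand). Each reads 5′ to 3′ on the gene's strand, and capitals mark matches to any of 5 short motifs on either strand, none of which overlapped here.
Cd3e: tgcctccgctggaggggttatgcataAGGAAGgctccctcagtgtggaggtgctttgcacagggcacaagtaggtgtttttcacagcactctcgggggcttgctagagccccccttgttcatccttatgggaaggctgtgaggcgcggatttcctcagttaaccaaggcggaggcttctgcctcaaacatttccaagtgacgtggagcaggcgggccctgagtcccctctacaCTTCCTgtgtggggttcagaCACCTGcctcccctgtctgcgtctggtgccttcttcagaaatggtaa
Cd8a: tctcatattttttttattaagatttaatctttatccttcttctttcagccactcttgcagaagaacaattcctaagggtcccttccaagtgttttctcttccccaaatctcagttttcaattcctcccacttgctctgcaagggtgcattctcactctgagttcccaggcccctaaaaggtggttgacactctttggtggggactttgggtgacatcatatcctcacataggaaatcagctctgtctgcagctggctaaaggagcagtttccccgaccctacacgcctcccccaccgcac
Pdcd1: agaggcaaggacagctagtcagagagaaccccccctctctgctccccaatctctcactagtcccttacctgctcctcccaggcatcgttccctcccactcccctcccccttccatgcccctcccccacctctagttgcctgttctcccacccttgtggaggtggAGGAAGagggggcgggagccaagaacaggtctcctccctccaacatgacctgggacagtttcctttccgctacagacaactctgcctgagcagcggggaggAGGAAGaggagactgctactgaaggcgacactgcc
The letters searched were TGTGGT for RUNX factors, present in 16.8% of all 32851 RefSeq windows of this length. For ETS factors they were AGGAAG, present in 35.4% of windows. For TCF factors they were CTTTGA, present in 16.0%. For GATA factors they were AGATAA, present in 11.2%. For E box factors they were CAGGTG, present in 20.2%. The Cd3e window held 2 ETS matches and 1 E box match, the Pdcd1 window 2 ETS matches, and the Cd8a window none of these letters.

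Total counts were 29.3 to 55.98 M per library, M standing for mega. Levels are given as CPM, each count relative to the scaled library total. Krt14, a keratin of basal epidermis, stood at 1015 to 2476 CPM over the 10 libraries. Some libraries stood apart. Growing-hair genes, keratins and trichohyalin, summed to 8988 and 28049 CPM in replicates 4 and 5 of the younger mice, against 33.7 to 321 CPM in the 8 others. White fat genes summed to 16530 CPM in 24 months replicate 1, against 1966 to 4452 CPM in the 9 others. Results are therefore also given without 9 months replicates 4 and 5 and without 24 months replicates 1 and 2, the latter both high in the B cell chemokine gene Cxcl13.

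Transcripts of the co-receptors and of Cd2 were higher in the older mice, whereas Cd3e, the subunit shared by all T cells, differed little. No member passed the adjusted threshold. With p adjusted over all 17668 genes tested (edgeR quasi-likelihood, Benjamini-Hochberg), 0 members and 0 genes (0%) were under 0.05. At an unadjusted p under 0.05, Cd2, Cd4, Cd8a and Cd8b1 were higher at 24 months, where 6.62% of all genes tested were, and 0 members were lower, where 6.45% of all genes were. The 7 members that passed the filter on low counts had at least the filter's 0.259 CPM in all 10 libraries, and Cd28, Icos and Pdcd1 did not pass. DESeq2 called Cd2, Cd4, Cd8a, Cd8b1 and Pdcd1 higher at an adjusted p under 0.05, a call made for 2.17% of the 19973 genes it adjusted, and 0 members lower, a call made for 2.42%. In whole skin, more cells of a type and more RNA per cell cannot be told apart.

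**Figure D1:**
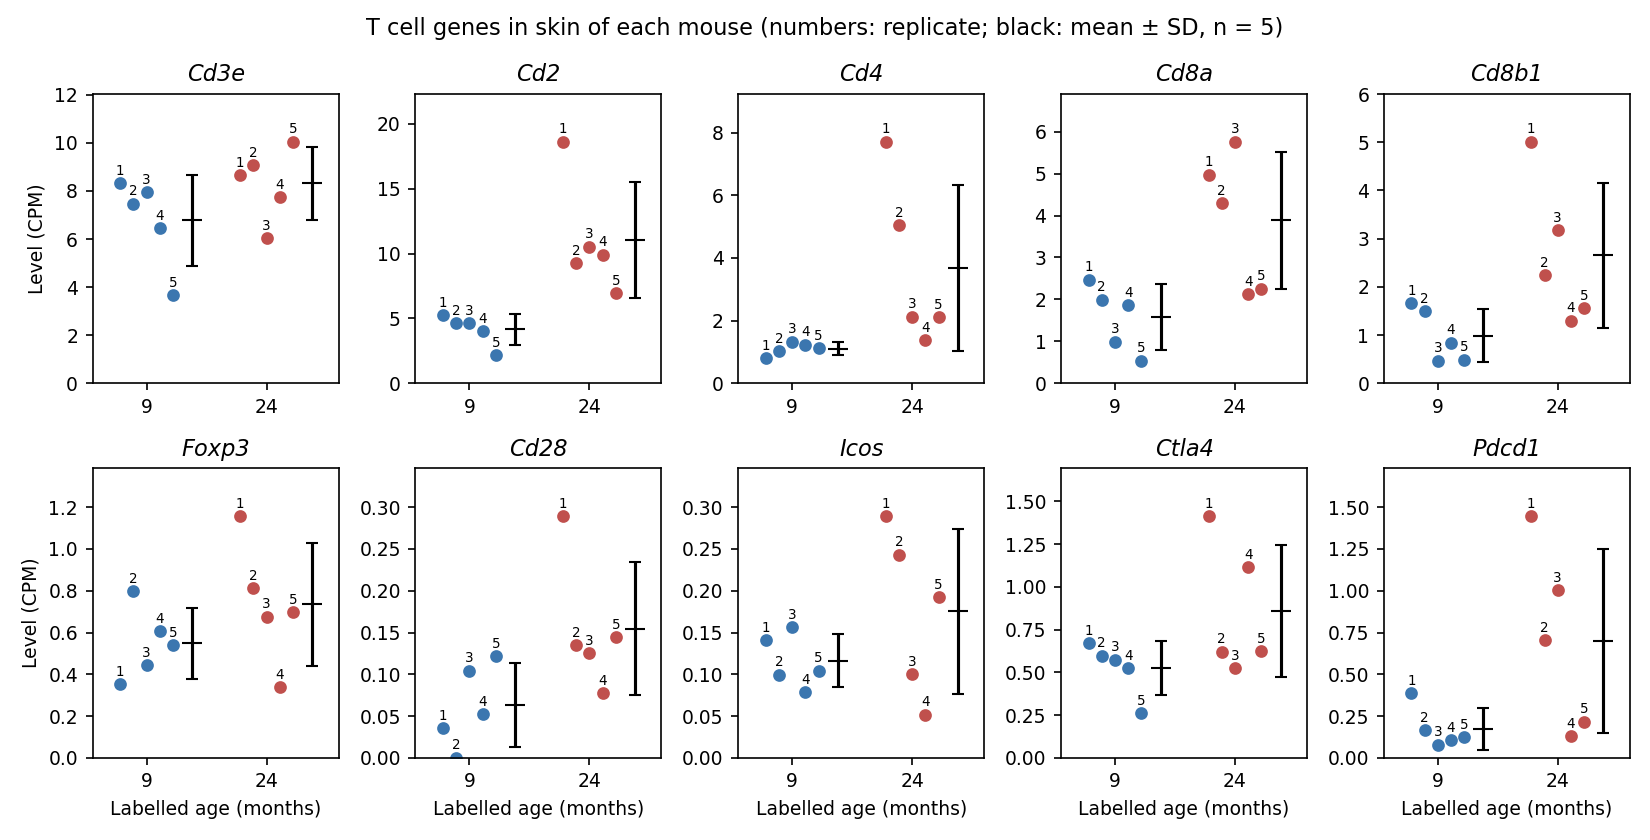
Level of each gene in CPM (vertical axes, linear from 0) in the 5 libraries labelled 9 months (blue) and the 5 labelled 24 months (red). Numbers are replicates and black marks are mean ± SD: all 5 older mice lie above all 5 younger ones for Cd2 and Cd4, the ages overlap for Cd3e, and 24 months replicate 1 is the highest library for 8 of the 10 genes, Cd3e and Cd8a being the exceptions.

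Cd3e encodes the epsilon chain of CD3, present in the receptor of alpha-beta and gamma-delta T cells alike. It stood at 8.32, 7.48, 7.96, 6.44 and 3.66 CPM in 9 months replicates 1 to 5 and at 8.67, 9.08, 6.03, 7.75 and 10.0 CPM in 24 months replicates 1 to 5. The groups overlapped, and the lowest value belonged to 9 months replicate 5, the deepest library and the one richest in growing-hair genes. The log2 fold change was 0.30 ± 0.24 (SE; edgeR adjusted p = 0.657), and 0.07 without 9 months replicates 4 and 5.

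Cd2 stood at 5.25, 4.65, 4.65, 4.02 and 2.18 CPM in the younger mice and at 18.6, 9.24, 10.5, 9.93 and 6.95 CPM in the older ones, replicates 1 to 5 in turn. Every older mouse lay above every younger one, a pattern shown by 1.66% of all genes tested in this direction and by 1.23% in the other. The means were 4.15 ± 1.19 and 11.1 ± 4.44 CPM (SD, n = 5 each). The log2 fold change was 1.42 ± 0.30 (SE; edgeR unadjusted p = 0.000545, adjusted p = 0.142), the smallest p of the members. It was 1.14 without 24 months replicates 1 and 2.

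Cd4 stood at 0.811, 1.03, 1.33, 1.24 and 1.11 CPM in the younger mice and at 7.71, 5.05, 2.13, 1.37 and 2.12 CPM in the older ones. Its ages did not overlap either, but the margin was narrow, since 24 months replicate 4 exceeded 9 months replicate 3 by 1.37 to 1.33 CPM. The younger mice spread little, with an SD of 0.200 around a mean of 1.10 CPM, and the older ones widely, with an SD of 2.66 around 3.68 CPM (n = 5 each). The log2 fold change was 1.72 ± 0.44 (SE; edgeR unadjusted p = 0.00221, adjusted p = 0.163). It was 0.76 without 24 months replicates 1 and 2, and 1.79 without 9 months replicates 4 and 5.

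Cd8a, the alpha chain of CD8, stood at 2.47, 1.99, 0.992, 1.87 and 0.540 CPM in the younger mice and at 4.98, 4.30, 5.76, 2.13 and 2.26 CPM in the older ones. Cd8b1, the beta chain, stood at 1.66, 1.50, 0.470, 0.842 and 0.487 CPM and at 5.01, 2.24, 3.18, 1.30 and 1.56 CPM. For both genes 24 months replicates 1 to 3 lay above every younger mouse, and replicates 4 and 5 lay within the younger range. The log2 fold changes were 1.32 ± 0.43 for Cd8a and 1.44 ± 0.47 for Cd8b1 (SE; edgeR unadjusted p = 0.00959 and 0.00981, adjusted p = 0.207 and 0.208). Without 24 months replicates 1 and 2 they were 1.12 and 1.04, with unadjusted p of 0.0526 and 0.0608. At that setting Cd2 and Cd4 were the members higher at an unadjusted p under 0.05, where 4.96% of all genes were higher. Without 9 months replicates 4 and 5 they were Cd2, Cd4 and Cd8a, where 4.65% of all genes were higher.

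Foxp3, the master transcription factor of regulatory T cells, stood at 0.353, 0.798, 0.444, 0.605 and 0.540 CPM in the younger mice and at 1.16, 0.811, 0.676, 0.337 and 0.697 CPM in the older ones. These values come from 10 to 36 reads per library. The lowest of all 10 libraries was 24 months replicate 4, and the ages overlapped. The log2 fold change was 0.42 ± 0.33 (SE; edgeR adjusted p = 0.661), and it was 0.06 without 24 months replicates 1 and 2.

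The co-stimulatory receptors were barely detected. Cd28 had 1, 0, 4, 2 and 7 reads in 9 months replicates 1 to 5 and 9, 5, 5, 3 and 6 reads in 24 months replicates 1 to 5, 14 against 28 reads in all. Icos had 4, 3, 6, 3 and 6 reads against 9, 9, 4, 2 and 8 reads, 22 against 32 in all. Both genes overlapped between the ages. In the edgeR fit without the filter, the log2 fold changes were 1.09 ± 0.60 for Cd28 and 0.55 ± 0.49 for Icos (SE; adjusted p = 0.552 and 0.651). The unadjusted p of Cd28 in that edgeR fit was 0.0872, and 0.0369 to 0.224 with each library left out. It was lowest without 9 months replicate 5. There the adjusted p was 0.535, and 4.7% of all genes were higher at an unadjusted p under 0.05.

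Among the checkpoints, Ctla4 stood at 0.670, 0.598, 0.574, 0.526 and 0.261 CPM in the younger mice and at 1.41, 0.622, 0.526, 1.11 and 0.625 CPM in the older ones. Of the older mice, replicates 1 and 4 exceeded the younger range and the other 3 did not. The log2 fold change was 0.72 ± 0.35 (SE; edgeR adjusted p = 0.424). Pdcd1 had 11, 5, 3, 4 and 7 reads in the younger mice and 45, 26, 40, 5 and 9 reads in the older ones, equal to 0.388, 0.166, 0.0783, 0.105 and 0.122 CPM and to 1.44, 0.703, 1.002, 0.130 and 0.216 CPM. Replicates 1 to 3 of the older mice lay above every younger mouse and replicates 4 and 5 within the younger range, as for Cd8a and Cd8b1. In the edgeR fit without the filter the log2 fold change was 2.03 ± 0.63 (SE; unadjusted p = 0.00612, adjusted p = 0.268). In that fit 5.33% of all genes were higher at an unadjusted p under 0.05, and 5 members, Pdcd1 and the 4 above. Without 24 months replicates 1 and 2 the log2 fold change was 1.44, and without 9 months replicates 4 and 5 it was 1.74, and in both the unadjusted p was over 0.05 (0.05004 and 0.05501). DESeq2 gave, with all libraries, 2.04 ± 0.67 (SE; adjusted p = 0.0490).

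**Figure D2:**
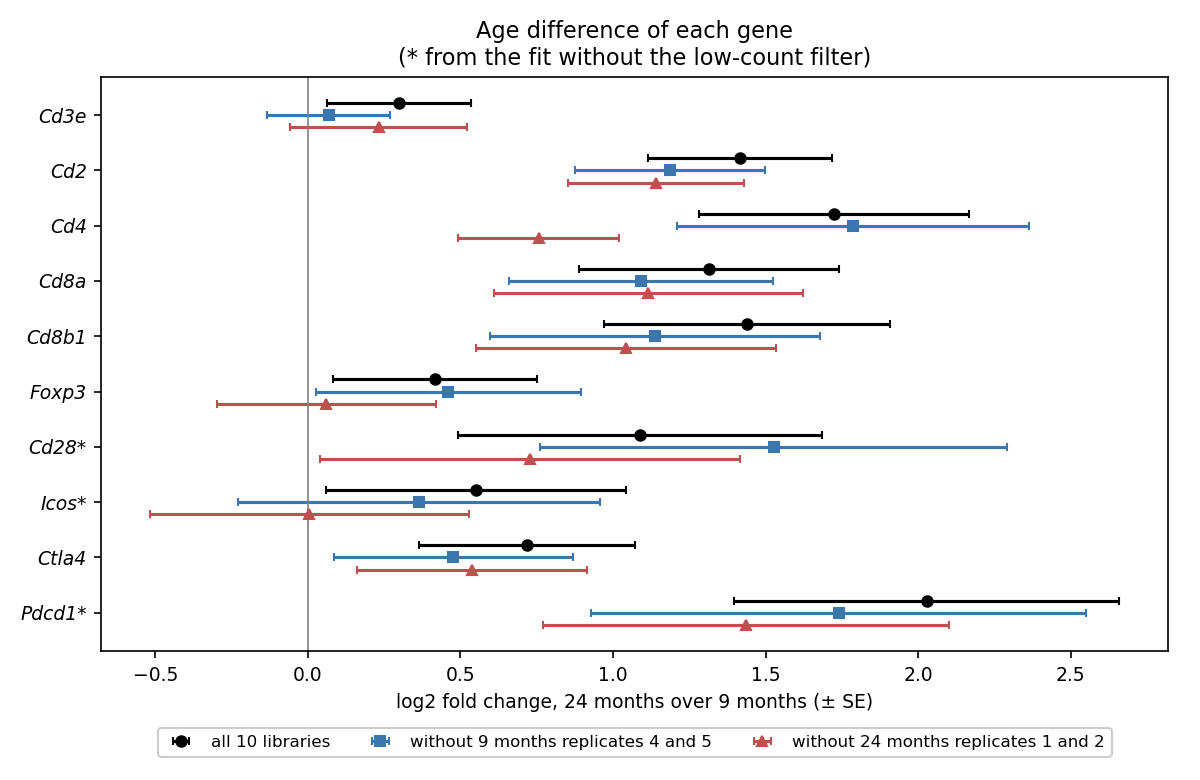
Log2 fold change of 24 over 9 months with its SE (horizontal axis) for each gene with all 10 libraries (black circles), without 9 months replicates 4 and 5 (blue squares) and without 24 months replicates 1 and 2 (red triangles). All estimates are at or above 0, and that of Cd4 moved from 1.72 to 0.76 without 24 months replicates 1 and 2.

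Levels were also set per kilobase of exon, so that genes of different length can be compared. At 9 months Cd2 led with a level of 2.38 ± 0.681 CPM per kb, followed by Cd3e at 1.66 ± 0.461, Cd8b1 at 0.668 ± 0.376, Cd8a at 0.432 ± 0.216, Cd4 at 0.274 ± 0.0497 and Ctla4 at 0.226 ± 0.0673 CPM per kb (SD, n = 5). Foxp3, Pdcd1, Icos and Cd28 followed at 0.120 ± 0.0370, 0.0891 ± 0.0647, 0.0339 ± 0.00928 and 0.0103 ± 0.00818 CPM per kb (SD, n = 5). Each neighbouring pair in this order overlapped in range except Icos and Cd28. At 24 months the order was the same apart from an exchange of Pdcd1 and Foxp3. Cd2, at 6.35 ± 2.55 CPM per kb, no longer overlapped Cd3e, at 2.04 ± 0.372 CPM per kb (SD, n = 5), and each pair below them overlapped.

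Ratios of read counts within a library do not depend on how libraries are scaled, and they show whether members kept step with each other. Over 12 ratios compared by a two-sided exact permutation test of the 10 libraries, 2 had an adjusted p under 0.05, Cd2 to Cd3e and Foxp3 to Cd4. Reads of Cd2 per read of Cd3e were 0.632, 0.623, 0.584, 0.625 and 0.596 in the younger mice, where the SD of the log2 ratio was 0.05. They were 2.15, 1.02, 1.75, 1.28 and 0.692 in the older mice, where that SD was 0.64. The younger values rest on 125 to 178 reads of Cd2 per library, and how far the sampling of reads sets their spread was not tested. All 5 older mice lay above the younger range. The mean log2 ratio differed by 1.06 (exact permutation p = 0.00794, the smallest that 5 against 5 libraries can give, and adjusted p = 0.0476 over the 12 ratios).

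Reads of Foxp3 per read of Cd4 were 0.447, 0.778, 0.340, 0.495 and 0.488 in the younger mice and 0.152, 0.163, 0.322, 0.252 and 0.333 in the older ones. All 5 older mice lay below the younger range, with a mean log2 difference of -1.08 (two-sided exact permutation p = 0.00794, adjusted p = 0.0476). Against Cd3e, Foxp3 differed by 0.03 on the log2 scale (exact permutation p = 0.944, adjusted p = 0.952). Both calls end on leaving out any 1 of 8 libraries, where the adjusted p was 0.0952 or 0.190. They hold without 24 months replicate 3 or replicate 5. A ratio that alone has the smallest permutation p, 0.00794, gets an adjusted p of 0.0952, so a call needs 2 such ratios. The calls therefore cannot tell whether a result rests on 1 library. With each library left out, the mean log2 difference was 0.87 to 1.28 for Cd2 to Cd3e and -1.22 to -0.92 for Foxp3 to Cd4. Without 24 months replicates 1 and 2 the difference of Foxp3 to Cd4 was -0.71 (exact permutation p = 0.0536, adjusted p = 0.321).

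Reads of Cd4 per read of Cd3e were 0.0994 to 0.306 in the younger mice and 0.889, 0.557, 0.354, 0.179 and 0.211 in 24 months replicates 1 to 5, a mean log2 difference of 1.12 (exact permutation p = 0.0556, adjusted p = 0.214). Reads of Cd8a per read of Cd3e were 0.126 to 0.298 and then 0.575, 0.474, 0.954, 0.275 and 0.226, a difference of 1.04 (exact permutation p = 0.0714, adjusted p = 0.214). In both, 24 months replicates 1 to 3 lay above the younger range. Cd8a to Cd4 differed by -0.08 on the log2 scale and Cd8b1 to Cd8a by 0.06, with an adjusted p of 0.952 for both in the exact permutation test. Mice of 1 age varied widely in the log2 ratio of Cd8a to Cd4, from -1.03 to 1.58 at 9 months and from -0.63 to 1.43 at 24 months.

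Reads of Ctla4 per read of Cd3e were 0.0736 to 0.0835 in the younger mice and 0.0633 to 0.165 in the older mice. The younger values rest on 15 to 22 reads of Ctla4 per library and the older ones on 21 to 44. With so few reads, sampling alone can spread such a ratio more widely. The narrow younger range therefore cannot show that Ctla4 kept a fixed proportion to Cd3e. The mean log2 difference was 0.32 (exact permutation p = 0.341, adjusted p = 0.583). Pdcd1 to Cd3e differed by 1.34 (exact permutation p = 0.127, adjusted p = 0.305). There were 0.168, 0.0788 and 0.168 reads of Pdcd1 per read of Cd3e in 24 months replicates 1 to 3 and at most 0.0486 in the 7 other libraries. The remaining 3 ratios involve Cd28 or Icos and had adjusted p of 0.397 to 0.952 in the exact permutation test. With so few reads they depend on the number added to each count. With 2 added in place of 0.5, the log2 difference of Cd28 to Cd3e went from 0.996 to 0.471. That of Ctla4 to Cd28 went from -0.672 to -0.182.

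**Figure D3:**
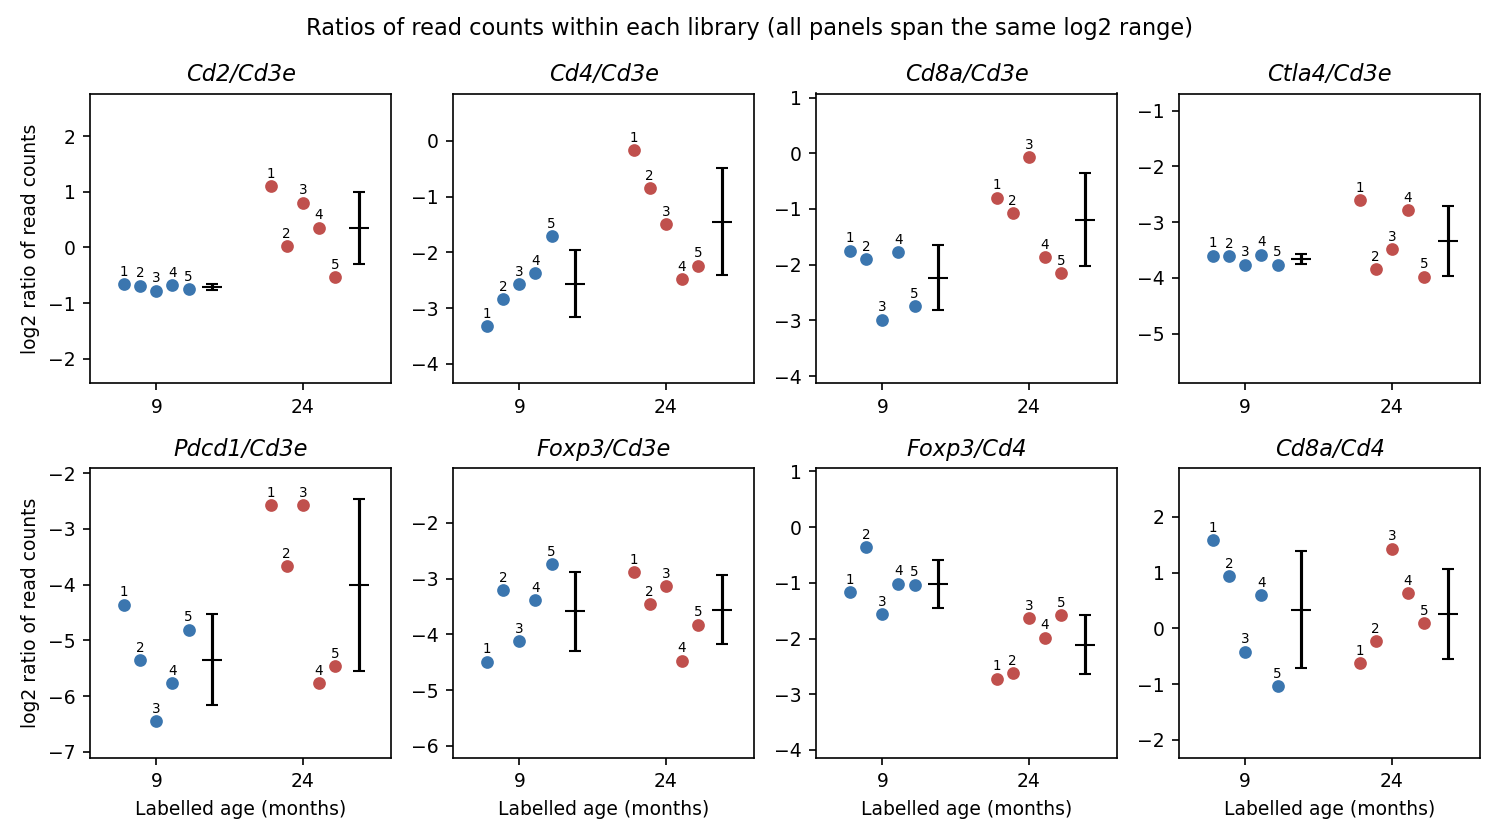
Log2 ratio of read counts within each library (vertical axes, every panel spanning the same log2 range) for 8 of the 12 ratios, at 9 months (blue) and 24 months (red), with replicate numbers and mean ± SD in black. Cd2/Cd3e and Ctla4/Cd3e are tightly grouped at 9 months and spread at 24 months, and Foxp3/Cd4 is lower in all 5 older mice. At 9 months Ctla4 had 15 to 22 reads per library, too few for its tight grouping to show a fixed proportion.

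Other genes of the T cell receptor and its first signalling proteins were described from a list of 24, of which 23 were tested and 0 passed the adjusted threshold. At an unadjusted p under 0.05, 11 were higher and 0 lower, where 6.62% and 6.45% of all genes tested were, the shares against which the counts of the lists below are to be read. The median log2 fold change was 0.64 against -0.01 over all genes tested. Log2 fold changes of the other invariant subunits were within 0.45 of 0, and all overlapped between the ages. Cd3d had 0.45 ± 0.28 (SE; edgeR adjusted p = 0.542). Cd3g had a log2 fold change of 0.29 ± 0.30 and Cd247, the zeta chain, of 0.15 ± 0.29 (SE; edgeR adjusted p = 0.745 and 0.887). Trac, the constant region of the alpha chain, stood at 1.10 to 3.98 CPM and 2.64 to 6.58 CPM, a log2 fold change of 0.79 ± 0.39 (SE; adjusted p = 0.431). The beta chain did not share this difference. Its constant regions Trbc1 and Trbc2 had log2 fold changes of 0.33 ± 0.28 and -0.16 ± 0.30 (SE; edgeR adjusted p = 0.684 and 0.876). Trdc, the constant region of the delta chain, stood at 4.70 to 14.4 CPM and 5.48 to 14.97 CPM, a log2 fold change of -0.14 ± 0.32 (SE; adjusted p = 0.904).

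Ptpn22, a phosphatase of lymphocytes, stood at 3.29 to 5.68 CPM at 9 months and 8.12 to 35.5 CPM at 24 months, and its ages did not overlap. Its log2 fold change was 1.76 ± 0.38 (SE; edgeR adjusted p = 0.144). Themis, which sets signal strength in developing T cells, had a log2 fold change of 1.56 ± 0.36, and Lck, the kinase bound to CD4 and CD8, of 0.75 ± 0.28 (SE; adjusted p = 0.159 and 0.269).

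With reads of Trac in place of Cd3e as the denominator, 0 of 8 ratios had an adjusted p under 0.05. Cd2 to Trac differed by 0.53 on the log2 scale (two-sided exact permutation p = 0.0873, adjusted p = 0.423) and its ages overlapped. Cd4 to Trac differed by 0.59, Cd8a to Trac by 0.51 and Foxp3 to Trac by -0.50 (adjusted p = 0.434, 0.423 and 0.434 in the exact permutation test). With Cd3g as the denominator, the difference of Cd2 was 1.03 (exact permutation p = 0.0238, adjusted p = 0.190).

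Gamma-delta T cell genes had a median log2 fold change of 0.07 over 8 of 10 tested, with 1 higher and 0 lower at an unadjusted p under 0.05, against 6.62% and 6.45% of all genes. That one was Blk, a kinase also made by B cells, at 0.853 to 1.84 CPM and 1.44 to 32.01 CPM. The gamma chain constant regions Tcrg-C2 and Tcrg-C4, which share sequence with their copies, had log2 fold changes of 0.46 ± 0.27 and 0.35 ± 0.39 (SE; edgeR adjusted p = 0.507 and 0.767).

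Of 12 T cell transcription factors tested, 9 had positive and 3 negative fold changes, and 3 were higher and 1 lower at an unadjusted p under 0.05, with a median log2 fold change of 0.22. Eomes and Tbx21, factors of cytotoxic and helper type 1 cells, did not overlap between the ages, a pattern shown by 1.66% of all genes tested in this direction. Eomes stood at 0.0353 to 0.157 CPM and 0.285 to 2.06 CPM, and Tbx21 at 0.505 to 0.846 CPM and 1.01 to 2.09 CPM (edgeR adjusted p = 0.142 and 0.159). For Eomes every younger mouse was below the filter's 0.259 CPM and every older one above it. Eomes was thus tested only through the older group, which favours both its call and its lack of overlap. Lef1, which also acts in the hair matrix, had a log2 fold change of -3.29 ± 0.92 (SE; adjusted p = 0.164). Its level was 19.7 and 40.97 CPM in 9 months replicates 4 and 5, the libraries richest in growing-hair genes, and 1.11 to 2.13 CPM in the 8 others.

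Of 12 other genes of regulatory T cells 11 were tested. At an unadjusted p under 0.05, 1 was higher and 0 lower, a share near the 6.62% and 6.45% of all genes, with a median log2 fold change of 0.27. That gene was Itgae, an integrin of T cells in epithelia, with 0.54 ± 0.23 (SE; edgeR adjusted p = 0.341). Il2ra, the alpha chain of the interleukin-2 receptor, stood at 1.18 to 2.29 CPM and 1.59 to 3.24 CPM. Ikzf2, the factor Helios, stood at 29.9 to 71.3 CPM and 53.7 to 93.9 CPM, far above Foxp3 at 0.337 to 1.16 CPM over both ages. Which cells made the genes of this list was not tested. Tnfrsf4, the receptor OX40, and Areg, a growth factor, had log2 fold changes of 0.44 ± 0.25 and -0.75 ± 0.40 (SE; adjusted p = 0.505 and 0.467).

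A list of 12 further checkpoint genes holds 10 receptors, the transcription factor Tox and the ectoenzyme gene Entpd1. Every fold change was positive, where 48.4% of all genes tested had one, and the median log2 fold change was 0.48. At an unadjusted p under 0.05, 5 were higher, Btla, Tigit, Lair1, Vsir and Entpd1. Btla, an inhibitory receptor shared with B cells, stood at 0.987 to 2.34 CPM in the younger mice. Of the older mice, replicate 1 had 26.3 CPM and the other 4 had 1.63 to 4.92 CPM. Tigit, a checkpoint of T and natural killer cells, stood at 0.0353 to 0.266 CPM and 0.192 to 1.38 CPM, and Lair1, a collagen receptor of leukocytes, at 1.62 to 2.38 CPM and 2.22 to 8.94 CPM. All 3 overlapped between the ages (edgeR adjusted p = 0.166, 0.174 and 0.254). Tigit reached the filter's 0.259 CPM in 9 months replicate 2 and in 24 months replicates 1 to 4, so it was tested mainly through the older mice. Lag3, which binds class II molecules, had a log2 fold change of 0.49 ± 0.27 (SE; adjusted p = 0.487).

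A list of 10 other co-stimulatory genes holds 8 receptors and the ligands Tnfsf8 and Cd40lg, and 9 were tested, all but Cd40lg. Their fold changes were all positive, with a median of 0.79 on the log2 scale, and 6 had an unadjusted p under 0.05, Tnfsf8 among them. Slamf1, a receptor of activated lymphocytes, stood at 0.0871 to 0.392 CPM and 0.544 to 1.41 CPM without overlap, a log2 fold change of 2.09 ± 0.44 (SE; edgeR adjusted p = 0.142). Its level reached the filter's 0.259 CPM in every older mouse but, of the younger mice, in replicate 3 alone. Slamf6, a related receptor, and Tnfsf8, the ligand of CD30, had log2 fold changes of 2.09 ± 0.60 and 1.17 ± 0.30 (SE; adjusted p = 0.166 and 0.163) with overlapping ages.

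The ligands of the members, made by antigen-presenting and tissue cells, numbered 12 tested. Their fold changes were all positive, 4 with an unadjusted p under 0.05, and the median log2 fold change was 0.45. Cd80 and Cd86, which bind CD28 and CTLA-4, had log2 fold changes of 1.08 ± 0.36 and 0.84 ± 0.25 (SE; edgeR adjusted p = 0.220 and 0.174). Cd274 and Pdcd1lg2, the ligands of PD-1, had 1.10 ± 0.36 and 1.38 ± 0.36 (SE; adjusted p = 0.208 and 0.163). Pdcd1lg2 did not overlap between the ages, at 0.157 to 0.388 CPM and 0.409 to 1.16 CPM. Cd274 reached 64.1 CPM in 24 months replicate 2. Icosl, the ligand of ICOS, had a log2 fold change of 0.05 ± 0.26 (SE; adjusted p = 0.961).

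Genes of T cell homing and memory had a median log2 fold change of 0.70 over 13 members, with 7 higher and 0 lower at an unadjusted p under 0.05. Itgal, a chain of the integrin LFA-1, stood at 3.63 to 8.94 CPM and 9.66 to 24.5 CPM, and Il7r, the receptor of interleukin-7, at 2.11 to 5.22 CPM and 5.29 to 10.7 CPM, both without overlap. Their log2 fold changes were 1.24 ± 0.31 and 0.95 ± 0.27 (SE; edgeR adjusted p = 0.163 and 0.164).

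Markers of other cells that can hold these genes are given beside them, and their part in the results was not tested. B cell genes summed to 37.7 to 56.7 CPM at 9 months and to 367, 100, 94.2, 126 and 39.2 CPM in 24 months replicates 1 to 5, and 7 of 9 tested were higher at an unadjusted p under 0.05. Cd79a and Ms4a1, which define B cells, had log2 fold changes of 2.89 and 3.23. Natural killer genes summed to 9.96 to 25.1 CPM and 19.9 to 35.1 CPM, and 5 of 7 tested members of 10 were higher at an unadjusted p under 0.05, among them Klrk1, Gzma and Prf1, which T cells also make. The others were Nkg7 and Klrb1c, with log2 fold changes of 0.75 ± 0.31 and 0.98 ± 0.41 (SE; edgeR adjusted p = 0.322 and 0.323) and overlapping ages. Klrb1c reached the filter's 0.259 CPM in 9 months replicate 3 and in 24 months replicates 1, 2, 3 and 5. The defining natural killer gene Ncr1 did not pass the filter and stood at 0.0522 to 0.263 CPM and 0.156 to 0.952 CPM.

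Dendritic cell genes summed to 164 to 202 CPM and 159 to 286 CPM. Of 12 tested, 2 were higher at an unadjusted p under 0.05, Irf8 and Clec9a, with log2 fold changes of 0.76 and 0.80. Macrophage genes reached 1846 CPM in 24 months replicate 3, the library with the highest Cd8a, and 3 of 12 were higher at that p. Mast cell and innate lymphoid genes gave 0 of 8 tested in either direction. Lymph node genes summed to 7.59 to 13.3 CPM and 12.6 to 186 CPM, with 2 of 5 tested higher, and Cxcl13 reached 162 CPM in 24 months replicate 1 and 74.9 CPM in replicate 2. The defining lymph node genes Glycam1 and Madcam1 had at most 2 reads in any library, and Ccl21a, which has near-identical copies, is listed at 0 in all 10. Fibroblast genes summed to 9794 to 14043 CPM and 1576 to 8172 CPM, lowest in 24 months replicates 1 and 2.

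**Figure D4:**
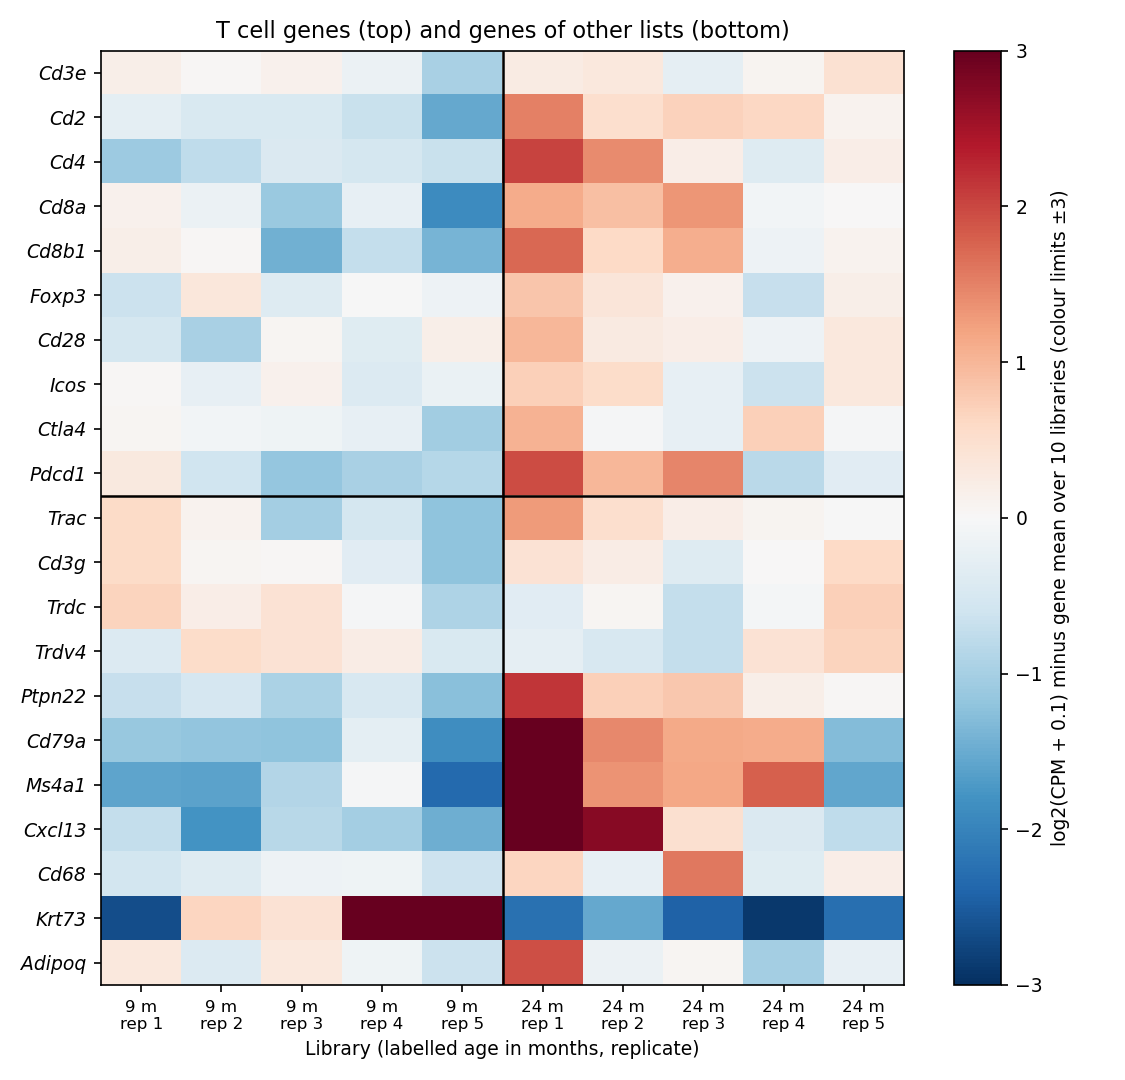
Level of each gene relative to its own mean, as log2(CPM + 0.1) (colour, limits ±3), in the 10 libraries (columns, labelled age in months and replicate), with the T cell genes above the line and genes of other lists below it. Cd4, Cd8a, Cd8b1 and Pdcd1 are highest in 24 months replicates 1 to 3, Cd79a, Ms4a1 and Cxcl13 in replicate 1, and Krt73, a hair keratin, in 9 months replicates 4 and 5.

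The likeness of profiles was measured as the root mean square difference of centred log2 CPM over the 10 libraries, where a smaller value means more alike. Among 13962 genes with a mean of at least 1 CPM, the gene most like Cd8a was Cd8b1, at 0.35, followed by Gpr65, a proton-sensing receptor, at 0.39 and Cytip, a regulator of leukocyte adhesion, at 0.40, where the median was 1.002. Cd2 had rank 15 there, at 0.48, and Cd3e rank 1031, at 0.81. Most like Cd4 were Baiap3 at 0.32, Il9r, the interleukin-9 receptor, at 0.35 and Fkbp5, a glucocorticoid-induced chaperone, at 0.37, where the median was 1.02. Most like Cd3e were Bbox1, an enzyme of carnitine synthesis, at 0.14, Tmigd1 at 0.16 and Casp12, a caspase, at 0.16, where the median was 0.49. For Foxp3, among 13963 candidates, they were Zcwpw1 at 0.27, B3gat2 at 0.29 and Cd5, a T cell surface receptor, at 0.30, where the median was 0.58. Genes that vary little lie close to each other on this measure.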

How the data were processed

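Messenger RNA libraries of skin were made with an Illumina multiplex kit, per the labels. The submitters' processing notes list CASAVA 1.7, STAR 2.4.1d, featureCounts 1.4.6-p4 and the build GRCm38. What each did, the annotation used, and how strand and multiply matching reads were treated was not known here. The count table deposited by the authors holds whole-number reads per gene, not normalised. A second deposited table, in RPKM, was not used.

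Symbols were found for 47224 of 47729 identifiers; coordinates and exon lengths come from GENCODE release M21. In edgeR 4.0.16 (R 4.3.3), genes passing filterByExpr were scaled by TMM and compared between the ages by the robust quasi-likelihood test, without covariates. P-values were adjusted by Benjamini-Hochberg over all genes tested, and SEs derive from the F statistic. The test was checked on simulated data with the same dispersion for every gene and no library standing apart. That check does not show how the test behaves with the spread of these libraries. Alternatives used DESeq2 1.42.0, limma 3.58.1, other scalings, no filter and left-out libraries. Ratios used counts plus 0.5. Replicates were numbered in accession order. Whether each library is a separate animal rests on the titles; otherwise p-values measure only the spread between libraries, which may be technical.

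The members, gene lists, ratios and tests were chosen with earlier results of these data known. Named genes were all members, 12 further genes, up to 3 with the smallest p in each list and the 3 nearest profiles of 4 members. Some genes that this rule names are not reported here. Cd3d, Trdc, Trdv4, Vsir, Entpd1, Tox, Cd40lg, Krt73, Adipoq, Cd68, Krt14, Ncr1, Glycam1, Madcam1 and Ccl21a were chosen after their values were seen, as were Trac and Cd3g as denominators. The same holds for Trbc1, Trbc2, Nkg7 and Klrb1c.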

Additional observations from a re-analysis of the deposited data

Results flagged for a closer look

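Of 44 checks of a single library against the rest of its age, over the members' levels and the 12 ratios, 2 stood apart by Dixon's criterion, where chance gives about 1 in 20. Pdcd1 stood at 0.388 CPM, from 11 reads, in 9 months replicate 1, and at 0.0783 to 0.166 CPM in the other younger mice. The log2 ratio of Ctla4 to Cd28 was 3.64 in 24 months replicate 4, which had 3 reads of Cd28, and 1.97 to 2.23 in the other older mice.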

How the results depend on the processing

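No paired analysis was possible because the labels give the groups no shared replicate numbers. Over all genes the edgeR count of 0 became 1 without the low-count filter, 916 with DESeq2, 3 with limma-voom and library quality weights, 1 without 9 months replicates 4 and 5, and 0 to 8 with each library left out, the 8 without 24 months replicate 4. Members with an unadjusted p under 0.05, 4 with all libraries, numbered 2 without 24 months replicates 1 and 2 and 4 to 5 with each library left out. Where there were 5, the added member was Pdcd1, or Ctla4 without 24 months replicate 3. Pdcd1 failed the filter with all libraries, reaching its level in 1 younger and 3 older ones. It passed only where libraries were left out, mainly through the older mice, so the set of members tested was not constant. Ratios with an adjusted p under 0.05, 2 with all libraries, numbered 0 without 9 months replicates 4 and 5, 0 without 24 months replicates 1 and 2, 0 with Trac and 0 with Cd3g as denominator, both chosen after seeing the data, and 0 to 2 with each library left out. With 3 against 5 libraries the smallest possible permutation p is larger, 0.0179. Cd2 to Cd3e reached it without 24 months replicates 1 and 2. With 1 library left out the smallest possible permutation p is still 0.00794. Fold changes of the 7 tested members kept their sign in the 18 alternatives run except Foxp3, at -0.0325 on the log2 scale with library quality weights; the cause was not tested. The fits for Cd28, Icos and Pdcd1 without the filter were added after seeing the data, kept their sign in the 15 alternatives run and were not repeated with limma-voom. Log2 differences of 5 ratios turned sign, also with the cause not tested. Icos to Cd3e was -0.0209 with pseudocount 2, -0.40 without 24 months replicates 1 and 2, -0.49 to Trac and -0.17 to 0.35 with each library left out. Foxp3 to Cd3e was -0.22 without 24 months replicates 1 and 2, -0.50 to Trac and -0.19 to 0.26 with each library left out. Ctla4 to Trac was -0.20. Without 24 months replicates 1 and 2, Cd8a to Cd4 was 0.38 and Cd8b1 to Cd8a -0.0331, and with each library left out they were -0.42 to 0.24 and -0.0922 to 0.19. Cd28 and Icos had the fewest reads, 0 to 9 per library.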
